A study of Mus musculus with 6 samples.

Results

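Scaffold adaptors of immunoreceptor signalling were followed in bulk RNA-seq of hematopoietic stem cells (HSCs) from WT and *Med23*-deficient mice. The set held 10 genes of the 34745 rows of the deposited tables, found by their symbols: *Fyb*, *Skap1*, *Skap2*, *Lcp2*, *Lat*, *Lat2*, *Clnk*, *Blnk*, *Grap2* and *Grap*. It was selected on the KO against WT values of these same libraries, in which *Fyb*, *Lat2* and *Clnk* stood higher in KO. The differences of these 10 genes between KO and WT are therefore given as a description, and no test outcome on them is read as support. Adaptors of this kind have no enzyme activity. After an antigen or Fc receptor is engaged, Syk and Src family kinases phosphorylate membrane scaffolds (Lat, Lat2) and cytosolic scaffolds (Lcp2, also called SLP-76, Blnk and Clnk), which then gather phospholipase C gamma, Vav and Grb2-family adaptors, while Fyb (also called ADAP) and its partners Skap1 and Skap2 link the complex to actin and integrins. The family is known mainly from T cells, B cells, mast cells, platelets and myeloid cells.

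The HSCs were sorted from bone marrow of adult C57BL/6 mice as LSK CD150+CD34-CD48- cells, and each genotype gave 3 libraries. WT mice were Med23floxp/flowp without Cre and KO mice were Mx1-cre;Med23floxp/flowp. *Mx1-cre* is driven by an interferon-inducible promoter, acts in many cell types besides HSCs, and was induced with poly(I:C). For its blood counts the study describes poly(I:C) in WT and KO mice alike, and its RNA-seq methods do not restate this or give an exact age. *Med23* encodes a subunit of Mediator, the complex that links transcription factors to RNA polymerase II. The labels do not say which libraries came from separate mice, so the errors below measure the spread between libraries, which may in part be technical.

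Library totals ran from 3537269 to 8131344 counts. The targeted gene *Med23* had 47.6, 70.8 and 24.1 normalised CPM (read counts scaled to a common library size) in WT and 31.6, 29.8 and 36.8 in KO, so the library labelled WT replicate 3 lay below all 3 KO libraries and the groups overlapped. Replicate 3 of both groups also stood apart in 4 Y-linked genes, with 0.309 and 0 summed CPM against at least 212 in the other 4 libraries. The reads thus point to female cells in replicate 3 and to male cells in the other 4 libraries. Within each group, replicate 3 differed from replicates 1 and 2 in more than technical handling. All 12 HSC markers were detected, with summed CPM of 2810 to 3360 in WT and 2990 to 3130 in KO. The similar sums hid opposite differences. In every KO library 3 of the 12 were lower (*Kit*, *Ly6a* and *Hlf*) and 2 higher (*Mecom* and *Hoxa9*). Of all genes tested, 6.15% were lower and 6.25% higher in this way. Markers of granulocytes summed to 92.7 to 144 CPM in WT and 310 to 582 in KO, most of it from *Prtn3*, and KO replicate 3 alone held 175 CPM of *Mpo*, which was at most 4.72 elsewhere. Markers of monocytes and macrophages summed to 39.0 to 87.0 CPM in WT and 95.8 to 130 in KO, with *Cd68* and *Adgre1* above every WT library. *Ly6c2* and *Ccr2* were at or near 0 in KO and at 0 in WT replicates 1 and 3, with 28 and 106 counts in WT replicate 2. *Cx3cr1* had at most 1 count in any library. Markers of skeletal muscle summed to 150 to 373 CPM in WT and 8.51 to 23.1 in KO. Markers of megakaryocytes and platelets summed to 928 to 935 CPM in WT and 930 to 1140 in KO, with 2 of the 10 (*Ppbp* and *Gp9*) higher and 1 (*Vwf*) lower in every KO library. Lymphoid and mast cells left few reads: 9 of 10 T cell markers had 3 counts or fewer in every library, with *Cd3e*, *Cd3d* and *Cd3g* at 0, 8 of 10 mast cell and basophil markers did so too, with *Fcer1a* at 0, and B cell markers summed to 44.3 to 77.5 CPM, almost all *Cd79b*, with *Pax5* and *Ms4a1* at 0. The part of these differences in the values below was not tested, and in such bulk samples fewer cells of a type and less RNA per cell cannot be told apart.

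**Figure D1:**
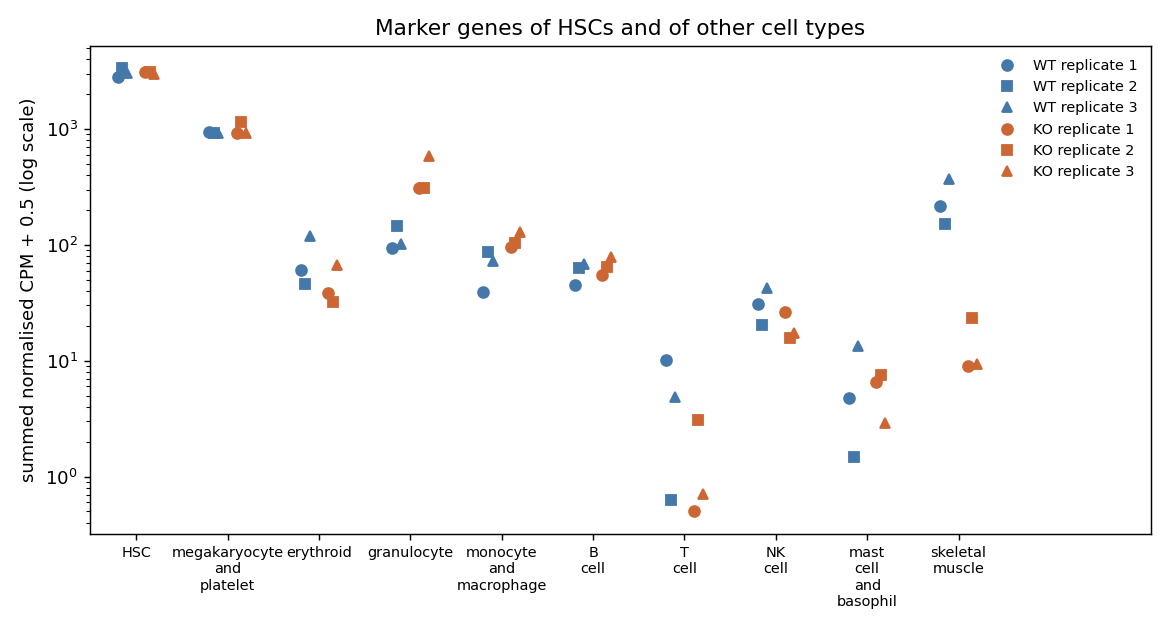
Summed normalised CPM plus 0.5 (log axis) of marker genes for HSCs and other cell types in each of the 3 WT and 3 KO libraries, 1 point a library. The sum of HSC markers lay between 2810 and 3360 in all 6 libraries, and the sums of T cell and mast cell markers stayed at or below 13. The sums of granulocyte and of monocyte and macrophage markers were higher in every KO library, but only 1 of 11 and 2 of 10 single genes were. The sum of skeletal muscle markers was lower in every KO library, as were 10 of its 12 genes.

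The bases just upstream of a RefSeq start of *Fyb*, *Clnk* and *Lat* are shown because *Fyb* and *Clnk* were higher and *Lat* lower in every KO library. They come from RefSeq promoter windows on GRCm38.p6 of 250 bases before the annotated start, cut at the first annotated exon base, and are written 5′ to 3′ on the strand of the gene, at chr15:6579597-6579846 (+) for *Fyb*, chr5:38876813-38876943 (-) for *Clnk* and chr7:126369571-126369818 (-) for *Lat*. The *Fyb* window precedes a start that lies inside the longer GENCODE span of the gene given below, not at the beginning of that span. Capitals mark matches on either strand to GAGGAA (a core bound by Spi1 and other ETS factors, read TTCCTC on the other strand), GATA (TATC) and TGTGGT (a Runx core, ACCACA).
Fyb: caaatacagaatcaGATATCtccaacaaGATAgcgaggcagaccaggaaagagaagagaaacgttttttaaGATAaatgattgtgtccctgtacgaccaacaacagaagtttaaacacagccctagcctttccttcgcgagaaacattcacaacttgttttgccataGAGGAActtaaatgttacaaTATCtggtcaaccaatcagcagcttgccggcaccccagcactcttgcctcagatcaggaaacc
Clnk: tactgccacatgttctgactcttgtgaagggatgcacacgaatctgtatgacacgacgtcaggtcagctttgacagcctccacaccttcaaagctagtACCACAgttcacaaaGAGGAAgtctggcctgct
Lat: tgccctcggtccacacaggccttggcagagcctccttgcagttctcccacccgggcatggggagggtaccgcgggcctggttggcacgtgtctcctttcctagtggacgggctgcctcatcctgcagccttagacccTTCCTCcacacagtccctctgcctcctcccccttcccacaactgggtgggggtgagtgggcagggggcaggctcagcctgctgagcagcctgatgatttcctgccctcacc
The window of *Fyb* held 1 GAGGAA and 5 GATA, of which a pair overlaps in GATATC, that of *Clnk* held 1 GAGGAA and 1 TGTGGT, and that of *Lat* held 1 GAGGAA. Over 32851 RefSeq promoters, 23.3% held GAGGAA, 53.6% GATA and 14.0% TGTGGT in the same 250 bases. GAGGAA stood upstream of *Fyb* and *Clnk*, higher in KO, and of *Lat*, lower in KO, and no link between a word and a direction was tested. The windows of *Lcp2* and *Grap2* held 3 and 2 GATA and neither of the other words, and that of *Skap2* held none of them. The word GCGTGGG of Egr factors, searched too and held by 4.3% of promoters, was in none of the windows named here. *Skap1*, *Lat2*, *Grap* and *Blnk* are not shown.

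In the actin and integrin arm, *Fyb* was 3.41-fold higher in KO, without overlap between the groups. It encodes the adaptor that binds SLP-76 and Ena/VASP proteins, and lies at chr15:6522853-6663313 (+, GRCm38, GENCODE M21). It had 178, 447 and 126 counts in WT and 653, 756 and 872 in KO, or 36.5, 54.9 and 38.9 normalised CPM against 132, 138 and 176. The lowest KO library stood above the highest WT library by more than the range of the WT libraries. The mean was 43.5 ± 10 CPM in WT and 149 ± 24.1 in KO (SD, n = 3 each), a log2 fold change of 1.77 ± 0.27 (SE). Without WT replicate 3 it was 1.70, without KO replicate 3 it was 1.63, and without replicate 3 of both groups it was 1.57.

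Parts of *Fyb* exons overlap another gene. The pseudogene *Gm7666* shares 231 exonic bases on the same strand and had 150, 105 and 143 CPM in WT and 88.9, 153 and 46.9 in KO, with overlapping groups. The antisense gene *Gm2245* shares 319 bases and had 0, 0 and 1 counts in WT and 6, 3 and 14 in KO, few beside the 653 to 872 of *Fyb*.

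*Skap2*, the Fyb partner found in myeloid cells, had the most reads of the set and lies at chr6:51857422-52012549 (-). Its 1136, 2293 and 425 WT counts came to 233, 282 and 131 CPM, and its 1644, 1573 and 1486 KO counts to 333, 286 and 301 CPM. The groups did not overlap, but WT replicate 2 lay just under the lowest KO library and most of the WT spread came from the library labelled WT replicate 3. Means were 215 ± 76.7 CPM in WT and 307 ± 24.0 in KO (SD, n = 3 each), and the log2 fold change of 0.51 ± 0.27 (SE) was 0.25 without WT replicate 3 and 0.75 without WT replicate 2. *Skap1*, the partner used by T cells (chr11:96464593-96759130, +), had 6, 38 and 0 counts in WT and 0 in all KO libraries. With a floor of 3 counts over the KO group in place of its 0, the WT level was 13.9 times the floor. It was 3.79 times the floor without WT replicate 2, which held most of the *Skap1* reads. For the observed counts, 44 in WT and 0 in KO, the exact 95% Poisson interval of WT over KO had a lower limit of 10.8, for counting error only.

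The cytosolic scaffolds differed among themselves. *Lcp2* (SLP-76, chr11:34046920-34092295, +) had 510, 1198 and 298 counts in WT and 895, 893 and 695 in KO. That was 105, 147 and 92.1 CPM against 181, 163 and 141, with WT replicate 2 inside the KO range. The mean was 115 ± 28.9 CPM in WT and 161 ± 20.4 in KO (SD, n = 3 each), a log2 difference of 0.49 ± 0.25 (SE). *Clnk* (MIST, chr5:38706462-38876812, -), a relative of SLP-76 with a proline-rich and an SH2 domain, had 85, 42 and 30 counts in WT and 240, 173 and 186 in KO. In CPM these were 17.4, 5.16 and 9.27 in WT and 48.6, 31.5 and 37.6 in KO. WT replicate 1 was the highest WT library by far, and the groups still did not overlap. From means of 10.6 ± 6.24 and 39.2 ± 8.68 CPM (SD, n = 3 each), the log2 fold change was 1.89 ± 0.51 (SE), or 3.71-fold, with 1.81 without WT replicate 3 and a range from 1.55 without WT replicate 2 to 2.47 without WT replicate 1. The antisense gene *Clnkos* overlaps *Clnk* outside exons and had at most 2 counts. *Blnk*, the B cell scaffold (chr19:40928927-40994535, -), had 7, 26 and 26 counts in WT and 0, 0 and 9 in KO. Summed over the group, its WT level was 6.20 times the KO level, with an exact 95% Poisson interval of 3.06 to 14.2 that covers counting error only.

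The membrane scaffolds *Lat* and *Lat2* differed in opposite directions. *Lat* (chr7:126363824-126369570, -), best known for T cell receptor signalling, had 160, 374 and 181 counts in WT and 100, 89 and 72 in KO. In CPM it stood at 32.8, 46 and 55.9 in WT and at 20.3, 16.2 and 14.6 in KO, without overlap. Its mean went from 44.9 ± 11.6 CPM in WT to 17.0 ± 2.93 in KO (SD, n = 3 each), a log2 fold change of -1.40 ± 0.39 (SE), or 2.64-fold lower, with -1.21 without WT replicate 3 and -1.1 without replicate 3 of both groups. *Lat2* (chr5:134600022-134615025, -), also called NTAL or LAB, the counterpart used in B cells, mast cells and monocytes, had 14, 53 and 21 counts in WT and 142, 100 and 135 in KO. These were 2.87, 6.51 and 6.49 CPM in WT and 28.8, 18.2 and 27.3 in KO, so the lowest KO library was above the highest WT library by more than the WT range. The mean was 5.29 ± 2.10 CPM in WT and 24.8 ± 5.73 in KO (SD, n = 3 each), a log2 fold change of 2.22 ± 0.55 (SE), or 4.66-fold, with 2.38 without WT replicate 3 and 2.15 without KO replicate 3.

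*Lat2* shares 952 exonic bases with *Rfc2*, a replication factor C subunit on the opposite strand, and whether the counting used strand is not given in the sources used here. Without strand, reads of the shared bases cannot be told apart. *Rfc2* had 219, 169 and 248 CPM in WT and 241, 330 and 300 in KO, with overlapping groups. The ratio of *Lat2* to *Rfc2* counts was 0.0131, 0.0385 and 0.0262 in WT and 0.119, 0.0551 and 0.0911 in KO, higher in every KO library.

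The Grb2-family adaptors *Grap2* (Gads, chr15:80572594-80652854, +), which ties SLP-76 to Lat, and *Grap* (chr11:61653265-61672784, +) were near the floor. *Grap2* had 7, 0 and 7 counts in WT and 3, 0 and 0 in KO, and the WT level over the group was 4.41 times the KO level with an exact 95% Poisson interval of 1.23 to 24.0, and 8.84 times without WT replicate 2, which had no reads of it. *Grap* went the other way, with 0, 0 and 1 counts in WT and 3, 15 and 22 in KO, a KO level over the group of 42.3 times the WT level with an interval of 7.17 to 1710. Its KO replicate 1 was at the floor of 3 counts. As for *Blnk*, these intervals cover counting error between the pooled libraries and not the spread between replicates.

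**Figure D2:**
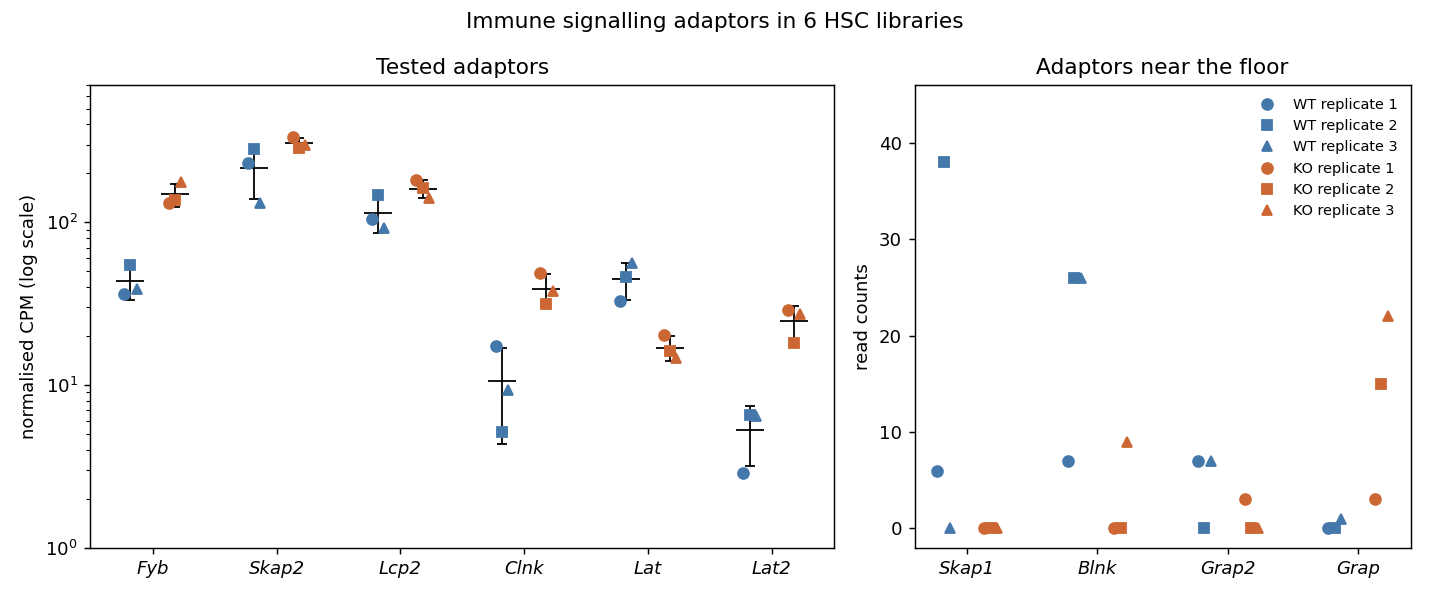
Left, normalised CPM (log axis) of the 6 adaptors that passed the filter on low counts, 1 point a library, with the mean and SD of each group (n = 3) in black; right, read counts of the 4 adaptors near the floor of 3 counts. *Fyb*, *Clnk* and *Lat2* were higher and *Lat* lower in every KO library, and *Lcp2* overlapped.

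In all, 6 of the 10 adaptors passed the filter on low counts, and *Skap1*, *Blnk*, *Grap2* and *Grap* did not. Of the 10, 5 stood above all WT libraries in each KO library (*Fyb*, *Skap2*, *Lat2*, *Clnk* and *Grap*), and 1 (*Lat*) stood below them. *Grap* was not among the genes tested. Of the 6 tested members, 4 were higher and 1 lower in this way, beside 6.25% and 6.15% of the 12513 genes tested. With edgeR's quasi-likelihood test and adjustment over all genes, 0 of the 6 passed the threshold, beside 0.0719% of all genes; 4 had an unadjusted p under 0.05, beside 5.71%, and DESeq2 called 3 (*Fyb*, *Lat2* and *Clnk*), beside 0.96%. These counts come from the contrast on which the genes were selected, so nothing is read from them.

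Within each library, the counts of one adaptor can be set against those of another, which removes the depth and the scaling. The ratio of *Lat2* to *Lat* was 0.0875, 0.142 and 0.116 in WT and 1.42, 1.12 and 1.88 in KO. The mean ratio went from 0.115 ± 0.0271 to 1.47 ± 0.378 (SD, n = 3 each), or 12.8 times, so *Lat* held more reads than *Lat2* in every WT library and fewer in every KO library. For *Fyb* over *Skap2* the ratio was 0.157, 0.195 and 0.296 in WT and 0.397, 0.481 and 0.587 in KO. *Fyb* over *Lcp2* was 0.349, 0.373 and 0.423 in WT and 0.730, 0.847 and 1.25 in KO. *Fyb* thus also differed relative to both of its partners in the complex. The ratio of *Clnk* to *Lcp2* was 0.167, 0.0351 and 0.101 in WT and 0.268, 0.194 and 0.268 in KO, and that of *Lcp2* to *Skap2* overlapped, at 0.449, 0.522 and 0.701 against 0.544, 0.568 and 0.468. The ratio of *Clnk* to *Lat2* overlapped too, at 6.07, 0.792 and 1.43 in WT and 1.69, 1.73 and 1.38 in KO, with WT replicate 1 far above the rest. The share of all counts that fell on the 10 adaptors was 0.0443%, 0.0550% and 0.0315% for the WT libraries and 0.0773%, 0.0681% and 0.0677% for the KO libraries.

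**Figure D3:**
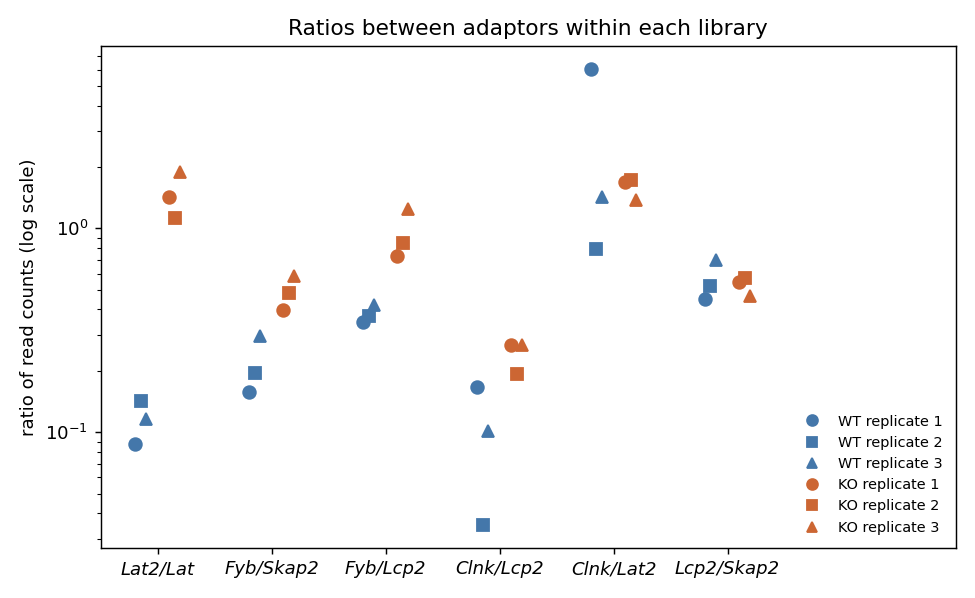
Ratio of read counts between pairs of adaptors within each library (log axis), 1 point a library. *Lat2*/*Lat* went from at most 0.142 in WT to at least 1.12 in KO, and *Clnk*/*Lat2* and *Lcp2*/*Skap2* overlapped between the groups.

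Levels between genes were compared per length, as FPKM. In WT, *Skap2* (16.3 ± 6.39, SD, n = 3) and *Lcp2* (15.4 ± 4.36) led, and the gap between them was within their SDs. *Lat* (8.49 ± 1.75), *Fyb* (6.09 ± 1.52) and *Clnk* (6.02 ± 3.78) followed, each within the summed SDs of its neighbour, although *Lat* was above *Fyb* in all 3 libraries. *Lat2* (0.826 ± 0.308) came next and did not separate from *Blnk* (0.642 ± 0.484). *Grap2*, *Skap1* and *Grap* were at 0.364, 0.206 and 0.0513 FPKM and did not separate either. In KO, *Skap2* (23.7 ± 2.29), *Clnk* (22.8 ± 5.35), *Lcp2* (22.4 ± 3.64) and *Fyb* (21.4 ± 2.49) were within their SDs of each other, so that *Fyb* and *Clnk* stood beside the scaffolds that had led in WT. After a gap came *Lat2* (4.02 ± 0.894) and *Lat* (3.36 ± 0.683), which did not separate, then *Grap* at 1.41 ± 1, while *Blnk*, *Grap2* and *Skap1* were at 0.0936, 0.0665 and 0 FPKM.

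The order depends in part on the gene lengths behind the FPKM values. The length implied by counts and FPKM was 7011 bases for *Fyb*, 13132 for *Skap2*, 5140 for *Lat* and 6219 for *Lat2*, against a longest GENCODE M21 transcript of 2669, 5896, 2053 and 1717 bases, whereas that of *Clnk* was close to it (1747 against 1700). Per kilobase of the longest transcript, *Fyb* came first in KO with 55.7 CPM, ahead of *Skap2* with 52.0, *Lcp2* with 44.3, *Clnk* with 23.1, *Lat2* with 14.4 and *Lat* with 8.28. The WT order of the first 6 was the same on that scale.

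**Figure D4:**
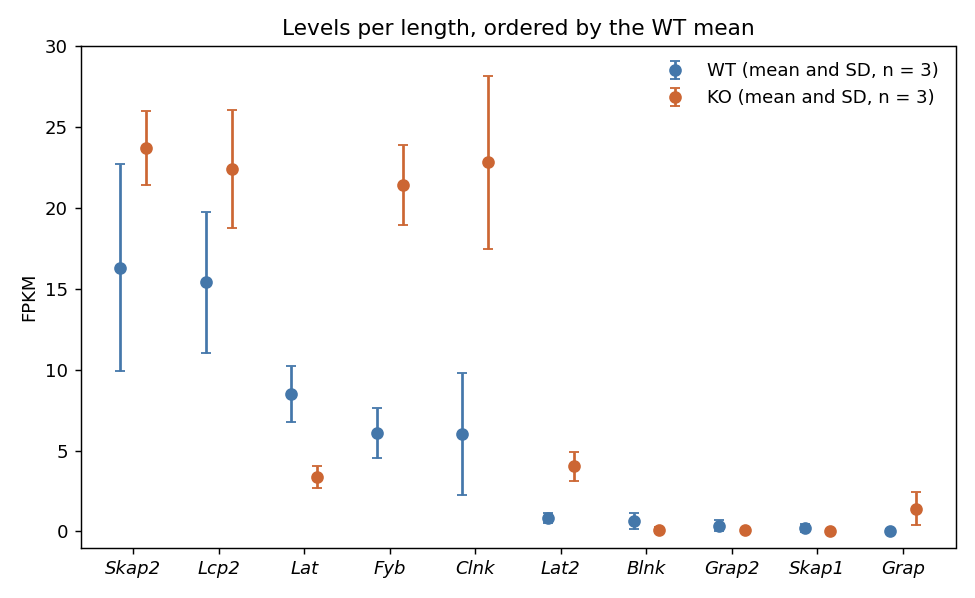
FPKM of the 10 adaptors in WT and KO HSCs, as mean and SD over 3 libraries, in the order of the WT mean. *Fyb* and *Clnk* went from near 6 FPKM in WT to 21.4 and 22.8 in KO, beside *Skap2* and *Lcp2*, while *Lat* went from 8.49 to 3.36 and *Lat2* from 0.826 to 4.02.

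To see whether the RNA of genes whose proteins work with these adaptors differed too, 5 lists of pathway genes were described. They held 116 genes in the tables, of which 92 were tested, and no protein was measured. None passed the threshold in edgeR's test adjusted over all genes (smallest adjusted p = 0.379), while 13 had a higher and 1 a lower value at an unadjusted p under 0.05, beside 368 higher and 347 lower of the 12513 genes tested. DESeq2 called 2 of the 92, both higher, beside 0.96% of all genes. Estimates were higher in KO for 68 of the 92, with a median log2 fold change of 0.27, beside 49.5% and -0.01 over all genes tested. In all, 15 of the 92 (16.3%) were higher in every KO library and 3 (3.26%) lower, to be read against the 6.25% and 6.15% of all genes tested.

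ITAMs are the motifs on which Syk docks, and the list of ITAM chains and receptors also held genes without them, such as *Pirb*. This list had 9 tested members of 22, 8 with a higher estimate and a median log2 fold change of 0.64. With so few genes this median moved with single libraries, to 0.41 without WT replicate 1, 0.99 without WT replicate 2, 1.27 without WT replicate 3 and 0.42 without KO replicate 3. *Fcer1g*, the shared Fc receptor gamma chain, had 22.1, 31.3 and 34.0 CPM in WT and 49.0, 71.7 and 107 in KO, a log2 fold change of 1.38 ± 0.37 (SE, adjusted p = 0.415 with edgeR). *Pirb*, an inhibitory receptor of myeloid and B cells named here after its values were seen, had 2.05, 0 and 0.618 CPM in WT and 16.2, 18.4 and 17.0 in KO, and DESeq2 called it. *Cd3e*, *Cd3d*, *Cd3g*, *Fcer1a* and *Gp6*, which mark T cells, mast cells and platelets, had 0 counts in every library.

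The kinases and phosphatases had 17 tested members of 20, 12 with a higher estimate and a median of 0.27. *Syk*, which phosphorylates these scaffolds, was at 11.6 ± 2.20 FPKM in WT and 14.9 ± 2.01 in KO, *Lyn* at 12.8 ± 3.51 and 20.7 ± 5.37, and *Btk* at 12.5 ± 4.81 and 13.4 ± 2.02 (SD, n = 3 each). The T cell counterpart of Syk, *Zap70*, had 0 counts in every library. *Fes*, a myeloid tyrosine kinase, was the 1 list member without overlap, at 72.4, 87.4 and 76.3 CPM in WT and 161, 104 and 125 in KO (log2 fold change 0.72 ± 0.25, adjusted p = 0.69).

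Effectors had 29 tested members of 31, 21 with a higher estimate and a median of 0.27. This median was 0.18 without KO replicate 3 and 0.35 without replicate 3 of both groups. *Plcg1*, the phospholipase that Lat recruits, had 97.6, 127 and 116 CPM in WT and 74.6, 79.3 and 86.0 in KO. Its log2 fold change was -0.50 ± 0.24 (adjusted p = 0.909 with edgeR). The paralog *Plcg2* went the other way, with overlapping groups (log2 fold change 0.39 ± 0.22, adjusted p = 0.947 with edgeR). A link to *Lat* was not tested. *Pik3r1*, a regulatory subunit of PI3 kinase, and *Prkcd*, a protein kinase C, did not overlap between groups, with log2 fold changes of 0.28 ± 0.18 (adjusted p = 0.981) and 0.29 ± 0.24 (adjusted p = 0.989). None of these passed the test.

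The actin and integrin partners of Fyb and Skap had all 18 members tested, 13 with a higher estimate and a median of 0.29, which was 0.18 without KO replicate 3 and 0.16 without replicate 3 of both groups. *Tln1*, the integrin-activating talin, had 1020, 941 and 1010 CPM in WT and 1670, 1290 and 1340 in KO (log2 fold change 0.53 ± 0.17, adjusted p = 0.615). *Itgb3*, the beta chain of a platelet and HSC integrin, and *Arpc2*, a subunit of the actin-nucleating Arp2/3 complex, gave 0.73 ± 0.40 (adjusted p = 0.94) and 0.37 ± 0.18 (adjusted p = 0.915). Groups of *Tln1*, *Itgb3* and *Arpc2* did not overlap, but the lowest KO library of *Itgb3* (33.6 CPM) was next to the highest WT library (33.4 CPM).

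The other adaptors and scaffolds had 19 tested members of 25, 14 with a higher estimate and a median of 0.24. On leaving out single libraries this median ran from 0.19 without KO replicate 1 to 0.36 without WT replicate 1. *Stap1*, an adaptor that binds Kit and receptor-proximal kinases, had 52.9, 57.6 and 68.9 CPM in WT and 107, 111 and 145 in KO, with a log2 fold change of 1.02 ± 0.26 and the smallest adjusted p of the 5 lists, 0.379 in edgeR; DESeq2 called it at an adjusted p = 0.0489. *Sla*, an inhibitory Src-like adaptor, had 70.7, 38.8 and 78.8 CPM in WT and 159, 136 and 106 in KO (log2 fold change 1.1 ± 0.31, adjusted p = 0.473). *Sla2* went the other way, with 135, 124 and 148 CPM in WT and 54.9, 78.6 and 120 in KO (log2 fold change -0.68 ± 0.30, adjusted p = 0.864 with edgeR). *Lax1* too was lower in every KO library. In this list 21.1% of the tested genes were higher in every KO library and 10.5% lower. *Bank1*, a B cell scaffold, had 5.13, 15.7 and 0 CPM in WT and 40.5, 32.4 and 50.4 in KO (log2 fold change 2.50 ± 0.93, adjusted p = 0.748). *Trat1* and *Themis*, adaptors of T cells, had 0 counts in every library.

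**Figure D5:**
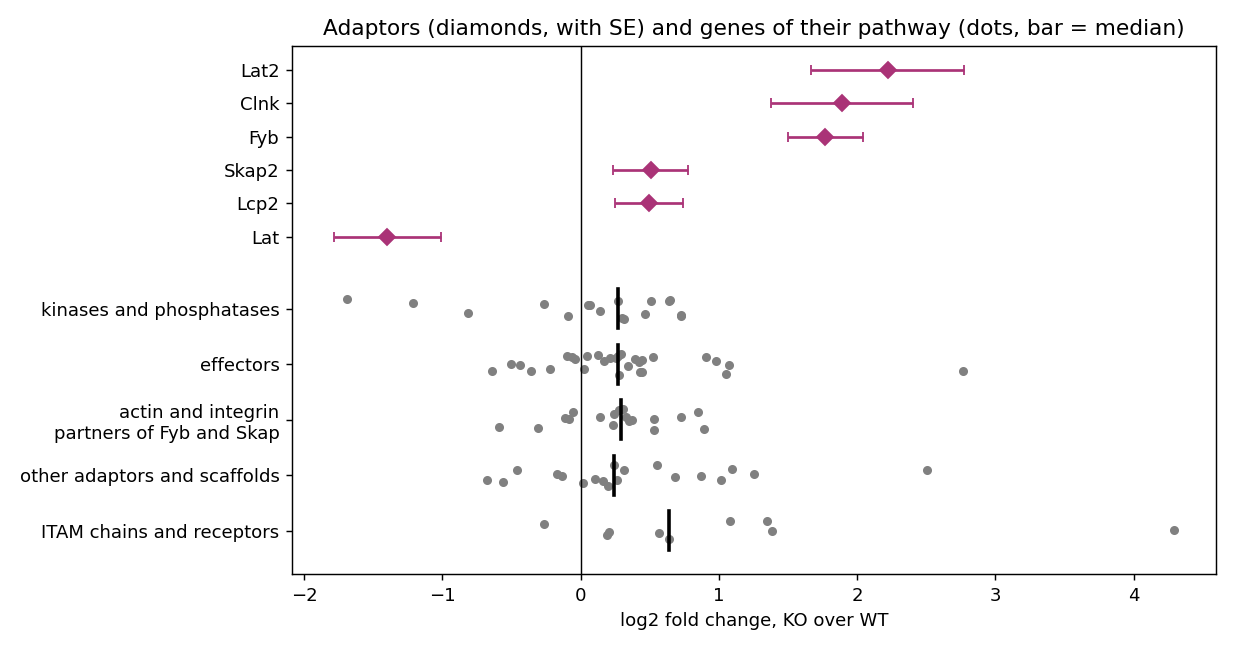
Log2 fold change, KO over WT, of the 6 tested adaptors (diamonds, with SE) and of the tested genes in 5 pathway lists (dots, with the list median as a bar). *Lat2*, *Clnk* and *Fyb* lay at 2.22, 1.89 and 1.77 and *Lat* at -1.40, and the list medians lay between 0.24 and 0.64.

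The genes with the most similar profiles over the 6 libraries were taken by the root mean square difference of centred log2(CPM + 0.5) among 10136 tested genes, as a description over libraries that share depth and groups. For *Fyb* they were *Prtn3*, a granule protease (0.102), *Ncf4*, a subunit of the phagocyte NADPH oxidase (0.221), and *Tdg*, a DNA glycosylase (0.233). *Prtn3* had 83.0, 141 and 86.5 CPM in WT and 305, 307 and 355 in KO. *Lat2* was closest to *Gsn*, the actin-severing gelsolin (0.314), *Cd53*, a leukocyte tetraspanin (0.332), and *6430590A07Rik* (0.396), with *Fyb* in place 4 at 0.4. *Clnk* was closest to *Prune* (0.363), *Zfr2* (0.374) and *Abcb4* (0.394). The nearest member to *Clnk* was *Fyb* at 0.702, in place 104, so *Clnk* shared its pattern less closely with *Fyb* than *Lat2* did.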

How the data were processed

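Bulk RNA-seq libraries of sorted HSCs, 3 WT and 3 KO by their labels, were analysed. The authors deposited unnormalised counts per gene and FPKM values; per the labels' processing notes, TopHat, HTSeq and mm10 were used, and the annotation and strand setting are not given in the sources used here. The labels name the SMART-Seq v4 amplification kit and the study's methods TruSeq libraries from sorted cells. FPKM equalled counts per library total and 1 length per gene.

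The counts were fitted with edgeR 4.0.16 (R 4.3.3), using filterByExpr, TMM scaling, and the quasi-likelihood test of KO against WT with Benjamini-Hochberg adjustment over 12513 genes at 0.05. Standard errors were derived from the F statistic. CPM are TMM-normalised, and 3 counts (0.369 to 0.927 CPM) served as the floor. The fit was tested on simulated data. Alternatives used DESeq2 1.42.0, limma 3.58.1 on log2(FPKM + 1) and log2(FPKM + 0.1), other scaling and filters, a replicate block, and left-out libraries.

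The 10 members and all gene lists were chosen with earlier results of these data known. Named genes were the members, *Med23*, list genes past the threshold, up to 3 per list with the largest fold change among those averaging 50 counts or more whose groups did not overlap, and the 3 nearest profiles of *Fyb*, *Lat2* and *Clnk*. Outside this rule, *Syk*, *Lyn*, *Btk*, *Plcg2*, *Pirb*, *Sla2*, *Lax1*, single marker genes and the genes given as at 0 in every library were named after their values were seen. Coordinates come from GENCODE M21 on GRCm38. Single-cell and ATAC-seq libraries were not analysed here.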

Additional observations from a re-analysis of the deposited data

How the results depend on the processing

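Directions of the 6 tested adaptors held under all 15 alternatives each, with log2 fold changes from 1.57 to 1.98 for *Fyb*, 1.46 to 2.41 for *Lat2* (1.46 with log2(FPKM + 1)), 1.55 to 2.47 for *Clnk*, -1.58 to -1.10 for *Lat*, 0.25 to 0.75 for *Skap2* and 0.36 to 0.72 for *Lcp2*. Members called by the test were 0 in edgeR, 3 with DESeq2 and 1 each without a filter and with at least 10 counts in every library. The same contrast selected the members, so nothing is read from these calls. Members lower in every KO library were 1, and 3 without replicate 3 of both groups (*Skap1*, *Lat* and *Blnk*) and 1 to 2 on leaving out single libraries. Those higher were 5 to 6. These counts include members that were not tested, whereas the shares of all genes cover tested genes only. Fewer libraries separate more genes: without replicate 3 of both groups, 17.4% of all genes were higher and 18.7% lower, and without single libraries 10.5% to 11.9% and 9.92% to 12.2%.

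Over all genes, 9 were called (2 higher, 7 lower), against 120 with DESeq2 (50 higher, 70 lower), 15 with log2(FPKM + 1) at a mean FPKM of at least 1, and 5 to 11 on leaving out single libraries, with 5 without WT replicate 1; the cause of these differences was not tested. Pathway genes called were 0 in edgeR and in the limma fits and 2 with DESeq2 (*Pirb* and *Stap1*), and the median of the pathway genes lay between 0.23 and 0.34 under every alternative; that of the ITAM list was 1.02 with at least 10 counts in every library and between 0.33 and 1.38 in the limma fits. With a replicate block, 5 genes were called, all lower, and 0 members. Same-numbered WT and KO libraries correlated at 0.17, 0.0324 and 0.17 in their deviations from the group means, a mean of 0.124. Libraries with different numbers had a mean of -0.0615, but centring each group on its own mean largely fixes this value from the first. By their Y-linked reads, same-numbered libraries also matched in sex. Whether the numbers pair the libraries was left unsettled. The main fit did not pair them, and the fit with a replicate block did. At this depth *Skap1*, *Blnk*, *Grap2* and *Grap* had too few counts for the test.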
